A study of Mus musculus with 40 samples.

Results

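The renal cortex of Akita mice given MitoQ was compared with that of WT mice given water, which asks what in the diabetic kidney still differed from a healthy kidney after treatment. The libraries were chosen by their labels, 5 from Akita mice on MitoQ and 5 from WT mice on water out of 40 in all, and the genes by a mean of 10 or more estimated counts over these 10 libraries, which 18598 of 55401 genes reached. Both groups were C57BL/6J mice, male per the treatment protocol. The Akita mice were heterozygous for Ins2-Akita, a mutated insulin gene that leads to diabetes without obesity, and received MitoQ in a water vehicle. The WT mice were their non-diabetic littermates and received water. The treatment protocol of all samples runs from 6 to 22 weeks of age but describes daily gavage for MitoGamide and the ethanol vehicle only, so the route and dose of MitoQ are not given in the sources used here. Each library came from the cortex of 1 animal. Genotype and MitoQ both differ between the groups and cannot be told apart within this comparison, so 4 companion comparisons are set beside it. The study as a whole sequenced ribosome-depleted total RNA from 8 groups of 5 mice, namely WT and Akita mice given an ethanol vehicle, MitoGamide, water or MitoQ.

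MitoQ is a ubiquinone coupled to a lipophilic cation, which carries it into the negatively charged mitochondrial matrix, where its reduced form acts as an antioxidant. The renal cortex consists mostly of proximal tubules, which take up filtered glucose and secrete or conjugate drugs and metabolites, together with distal segments, glomeruli, vessels and resident macrophages. In bulk tissue, fewer cells of a type and less RNA per cell cannot be told apart. The tumour suppressor p53, to which several of the genes below respond, stops the cell cycle through Cdkn1a and can start cell death through Pmaip1.

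The libraries of Akita mice on MitoQ held between 14599613 and 17903654 estimated counts (median 15723534), and those of WT mice on water between 9964109 and 16318325 (median 15166144). The 12 genes that mark the segments of the cortex, such as Lrp2, Umod and Nphs1, were detected in these libraries. WT water library 1 stood apart, with Alb at 337 CPM (counts scaled to a common library total) against 2.82 to 29.5 in the other WT water libraries and with the summed adipose, muscle and medulla markers also highest there. Libraries also differed along an axis of replicate differences taken from the 30 libraries outside this comparison, which carried 39.9% of the variance between replicates. Positions on it averaged -10.6 in Akita mice on MitoQ and -17.3 in WT mice on water (exact two-sided permutation test, p = 0.706). The share of counts on the mitochondrial genome was 25.5 to 36.7% in Akita mice on MitoQ and 14.3 to 37.3% in WT mice on water, and these ranges overlapped (exact permutation test, p = 0.317). The part of these differences in the results below was not tested, but counts of calls with the axis as a covariate and without the libraries concerned are given in the closing section.

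**Figure D1:**
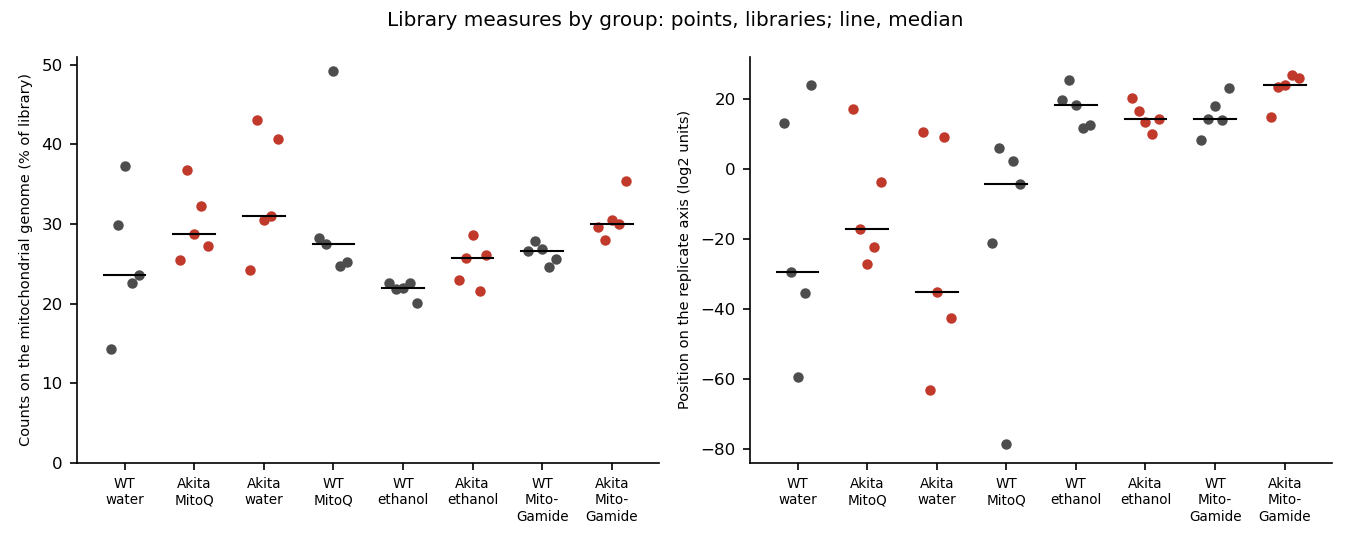
Left, share of all counts on the mitochondrial genome in percent; right, position on the axis of replicate differences in log2 units, for each of the 40 libraries by group, with the median as a line. The 4 groups of the water arm spread more widely along the axis than the 4 groups of the ethanol arm, and Akita MitoQ and WT water libraries overlap in both measures.

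In Akita mice on MitoQ, 51 of 18598 genes (0.274%) differed from WT mice on water by edgeR's quasi-likelihood test, with Benjamini-Hochberg adjusted p-values called under 0.05. Of these, 16 (0.086%) were raised and 35 (0.188%) were lowered, and in each of the 51 the 5 values of one group lay outside the range of the other. Over all genes tested, 2.87% showed such a separation, and 9.18% had an unadjusted p under 0.05. The raised genes included the conjugating enzyme Ugt1a10, the tryptophan enzyme Kynu, the kinase Sgk1, the growth factor antagonist Grem1 and the p53 targets Cdkn1a, Eda2r and Pmaip1. The lowered genes included the carboxylesterase Ces1g, the macrophage cytokine Il34 and its receptor gene Csf1r, the lipase Lpl and the surface antigen Ly6e. Leaving out 1 library at a time left 13 to 38 calls, with 13 without Akita MitoQ library 5, 16 without WT water library 4, 23 without WT water library 3, 24 without Akita MitoQ library 2, 3 or 4, 30 without WT water library 2, 31 without WT water library 1, 33 without Akita MitoQ library 1 and 38 without WT water library 5. In each of these 10 fits, Ces1g, Il34, Kynu, Rhov, Sgk1, AA536875, Adh6-ps1, Cntnap5a, Gm28959, Gm43158, Gm6300, Ugt1a10 and Grem1 kept their call. Levels of genes below are CPM after TMM normalization over the 40 libraries, in the order of library 1 to 5, and changes are log2 fold changes of Akita mice on MitoQ over WT mice on water.

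**Figure D2:**
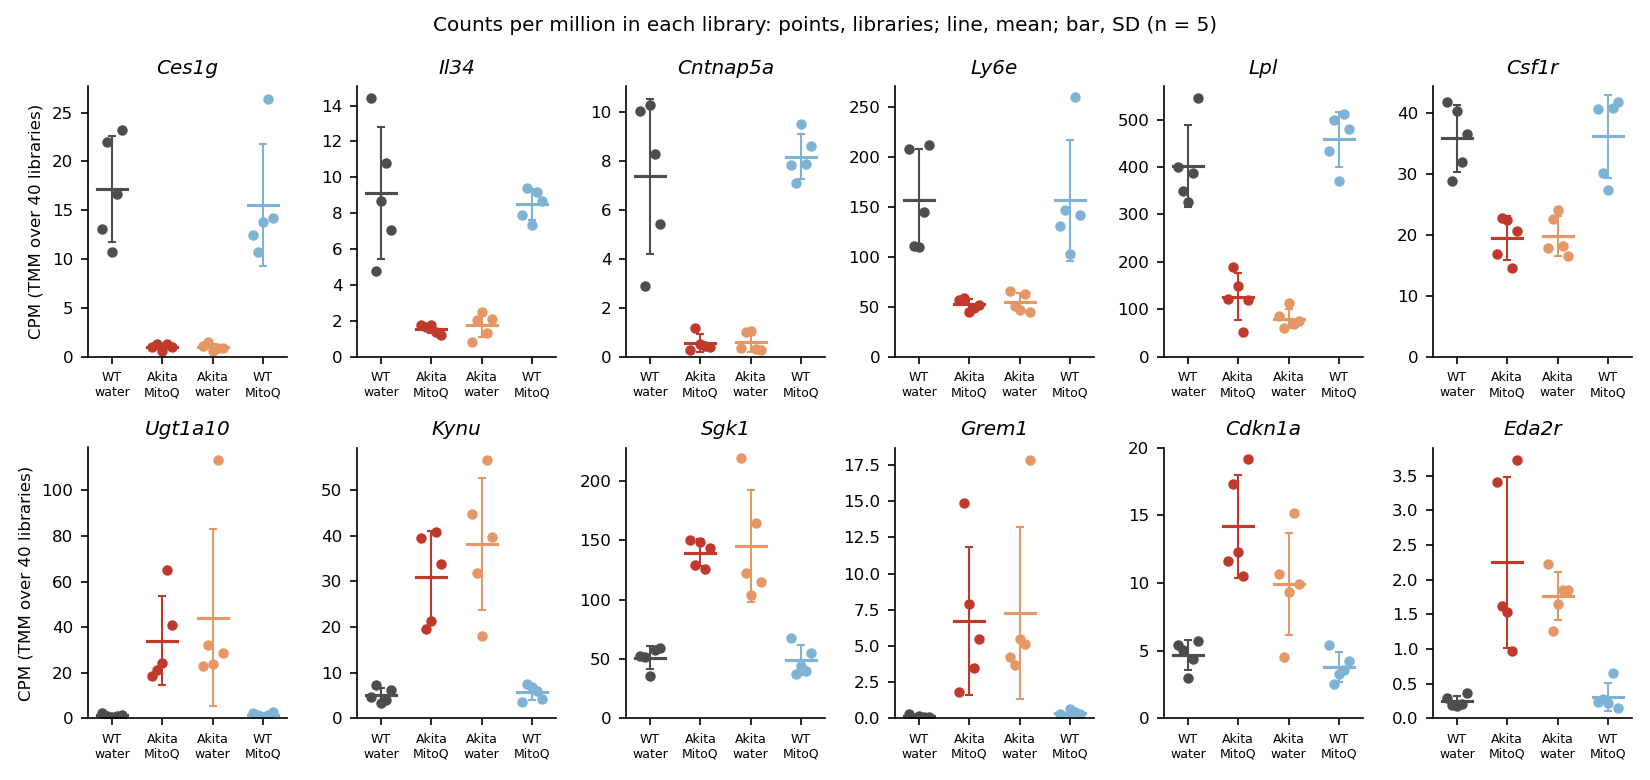
CPM of 12 called genes in each library of the 4 water-arm groups, on linear axes that start at 0, with the mean as a line and the SD as a bar (n = 5). For each gene the Akita MitoQ libraries lie outside the range of the WT water libraries; for Sgk1 they lie at 126 to 150.1 CPM, against 35.3 to 59.2 in WT mice on water.

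Enzymes that handle drugs and metabolites held the called gene with the smallest p. Ces1g (ENSMUSG00000057074.6, chr8:93302369-93337308, minus strand of GRCm38), a carboxylesterase that splits esters and lipids, was at 13.1, 22.0, 10.8, 16.6 and 23.2 CPM in WT mice on water. In Akita mice on MitoQ it was at 1.01, 1.27, 0.611, 1.27 and 0.962 CPM. The highest Akita value was thus well under the lowest WT value, and the log2 fold change was -4.07 (standard error 0.28, adjusted p = 8.52e-05, edgeR quasi-likelihood test). Akita mice on water, at 0.989 ± 0.337 CPM (SD, n = 5), and those on MitoQ differed by 0.07 on the log2 scale (standard error 0.31, adjusted p = 0.999, edgeR), which did not pass. Its relatives in the list of 38 tested genes of glucuronidation and xenobiotic metabolism did not pass the test: Ces1f was at -0.96 (adjusted p = 0.262, edgeR) and Ces1c, at few counts, at -4.57 (adjusted p = 0.234, edgeR). Ces1c was at 7.70 CPM in WT water library 1, which stood apart for liver markers, against 0.191 to 0.401 CPM in the other WT libraries and 0 to 0.191 CPM in Akita mice on MitoQ, and it was below the count minimum without that library. Near-identical carboxylesterase genes lie side by side, and kallisto divides shared reads among them, so the split between members is uncertain.

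Ugt1a10 (ENSMUSG00000090165.8, chr1:88055388-88219004, plus strand), which attaches glucuronic acid to drugs and hormones, was nearly silent in WT mice on water, at 2.22, 1.13, 0.475, 1.06 and 1.66 CPM. It was at 18.7, 21.1, 24.5, 65.3 and 40.8 CPM in Akita mice on MitoQ, higher in 5 of 5 libraries, and Akita libraries 4 and 5 were the highest. The change was 4.69 (standard error 0.45, adjusted p = 0.00149, edgeR). Ugt1a10 shares its last exons with the other Ugt1a genes and their reads may have been divided. Of these, Ugt1a2 was at 4.08 (adjusted p = 0.151, edgeR) and Ugt1a1 at 0.80 (adjusted p = 0.651, edgeR), neither of them called. For Ugt1a2, Akita MitoQ library 4 was at 662 CPM and the others at 20.3 to 80.5 CPM, and without it the change was 2.18. In the whole list, 1 gene rose, 1 fell and 36 did not pass, against 0.086% of all genes raised and 0.188% lowered. DESeq2 called 4 higher and 3 lower, against 0.645% and 1.05% of all genes. In edgeR, 12 genes had an unadjusted p under 0.05 (9.18% of all genes), and the median change was -0.11 against -0.02 over all genes tested. Because the start of Ugt1a10 is its own, its promoter is shown, from RefSeq on GRCm38.p6 (the 250 bases before the start at chr1:88055161-88055410, plus strand). The capitals mark the HNF1 motif GTTAAT, found once on each strand, and the paired core of p53 sites, CATG and CATG with 6 bases between; HNF1 factors are regulators of proximal tubule genes.
Ugt1a10 promoter: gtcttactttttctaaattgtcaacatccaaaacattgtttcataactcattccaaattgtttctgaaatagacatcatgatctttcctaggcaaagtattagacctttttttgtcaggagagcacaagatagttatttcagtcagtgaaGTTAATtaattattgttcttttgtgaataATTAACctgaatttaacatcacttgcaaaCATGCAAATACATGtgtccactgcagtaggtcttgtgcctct
The HNF1 motif occurred in 7.13% of the 32544 RefSeq promoter windows of 300 bases, and in at least 1 window of 8.24% of the 27025 genes listed, 1 of the 11 raised and 1 of the 17 lowered genes. Genes with several starts have several windows. Each motif was searched on both strands.

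Kynu (ENSMUSG00000026866.16, chr2:43555329-43682715, plus strand), which encodes kynureninase, a vitamin B6-dependent enzyme of tryptophan breakdown, was raised. Its levels were 4.66, 7.40, 3.39, 4.03 and 6.10 CPM in WT mice on water and 39.6, 19.5, 21.3, 40.7 and 33.7 CPM in Akita mice on MitoQ, so that the lowest Akita value was more than the highest WT value. The change was 2.59 (standard error 0.27, adjusted p = 0.00277, edgeR). Akita mice on water were at 38.1 ± 14.5 CPM and WT mice on MitoQ at 5.66 ± 1.70 CPM (SD, n = 5). Among the 17 tested genes of kynurenine and NAD synthesis, Kynu alone passed the test, against 0.086% of all genes raised and 0.188% lowered. DESeq2 called 1 higher and 1 lower, against 0.645% and 1.05% of all genes. The lower gene was Tdo2, at -2.32 in edgeR (adjusted p = 0.252, edgeR), the lowest change of the list. The median of the list was -0.31 against -0.02 over all genes tested. Another 7 had an unadjusted p under 0.05 (9.18% of all genes) and a negative change, among them Afmid (-0.63, adjusted p = 0.349, edgeR) and Aadat (-0.74, adjusted p = 0.468, edgeR), which act before and beside kynureninase. Kmo, the first gene of the list after Kynu, was at -0.20 (adjusted p = 0.922, edgeR). Pdxk, which makes the active form of vitamin B6, was at 1.01 (adjusted p = 0.117, edgeR) and was not called.

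Of the 21 tested p53 targets, 3 rose, 0 fell and 18 did not pass, against 0.086% of all genes raised. The list had 9 members with an unadjusted p under 0.05, all with a positive change, and a median of 0.33 against -0.02 over all genes tested. Cdkn1a (ENSMUSG00000023067.14, chr17:29090976-29100727, plus strand), which encodes the cell cycle inhibitor p21, was at 5.45, 5.02, 2.97, 4.35 and 5.73 CPM in WT mice on water and at 11.6, 17.3, 12.3, 10.5 and 19.2 CPM in Akita mice on MitoQ. The groups were apart, with a change of 1.59 (standard error 0.23, adjusted p = 0.0149, edgeR), but the call was lost without Akita MitoQ library 5 or WT water library 4 (adjusted p between 0.0538 and 0.0694). Eda2r (ENSMUSG00000034457.10, chrX:97333840-97377216, minus strand), a receptor of the tumour necrosis factor family, was at 0.287, 0.188, 0.178, 0.212 and 0.370 CPM in WT mice and 3.41, 1.62, 1.53, 0.978 and 3.73 CPM in Akita mice on MitoQ. Libraries 1 and 5 were highest, the change was 3.14 (standard error 0.46, adjusted p = 0.0160, edgeR), and the call was lost without Akita MitoQ library 5 or WT water libraries 2, 3 or 4 (adjusted p between 0.0541 and 0.0763). The call of Eda2r was also lost with limma voom and sample quality weights (adjusted p = 0.0629, limma). Pmaip1 (ENSMUSG00000024521.8, chr18:66458533-66465565, plus strand), which encodes the cell death protein Noxa, was at 5.23, 3.64, 4.81, 5.51 and 5.97 CPM in WT mice and 13.7, 9.70, 11.2, 11 and 11.2 CPM in Akita mice on MitoQ, a change of 1.18 (standard error 0.16, adjusted p = 0.0116, edgeR). For Pmaip1, the call was lost without Akita MitoQ library 5 (adjusted p = 0.0538).

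The other p53 targets ranged from -0.57 in Sesn2 to 1.07 in Gdf15, a stress-induced cytokine (adjusted p = 0.137, edgeR). Mdm2, the ligase that removes p53, was at 0.33 (adjusted p = 0.582, edgeR) and Trp53, the gene of p53 itself, at -0.16 (adjusted p = 0.849, edgeR), and neither was called. The count of raised members was 0 without Akita MitoQ library 5, 1 without WT water library 4, 2 without WT water library 2 or 3 and 3 or 4 without any other library. It was also 0 without both WT water libraries 1 and 3, 7 with DESeq2, which raised 0.645% of all genes, and 9 with the replicate axis as a covariate, which raised 1.6% and lowered 2.88%. Without MitoQ, Akita against WT mice on water gave 1 raised member (background 0.186%) and a median of 0.34, in a comparison that uses the same WT libraries. In Akita against WT mice on the ethanol vehicle, which share no library with this comparison, 8 of 21 members rose (background 8.18%) and 0 fell. There Eda2r was at 2.16 (adjusted p = 3.99e-05, edgeR) and Cdkn1a at 0.79 (adjusted p = 0.0234, edgeR), whereas Pmaip1 was at 0.11 (adjusted p = 0.713, edgeR).

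**Figure D3:**
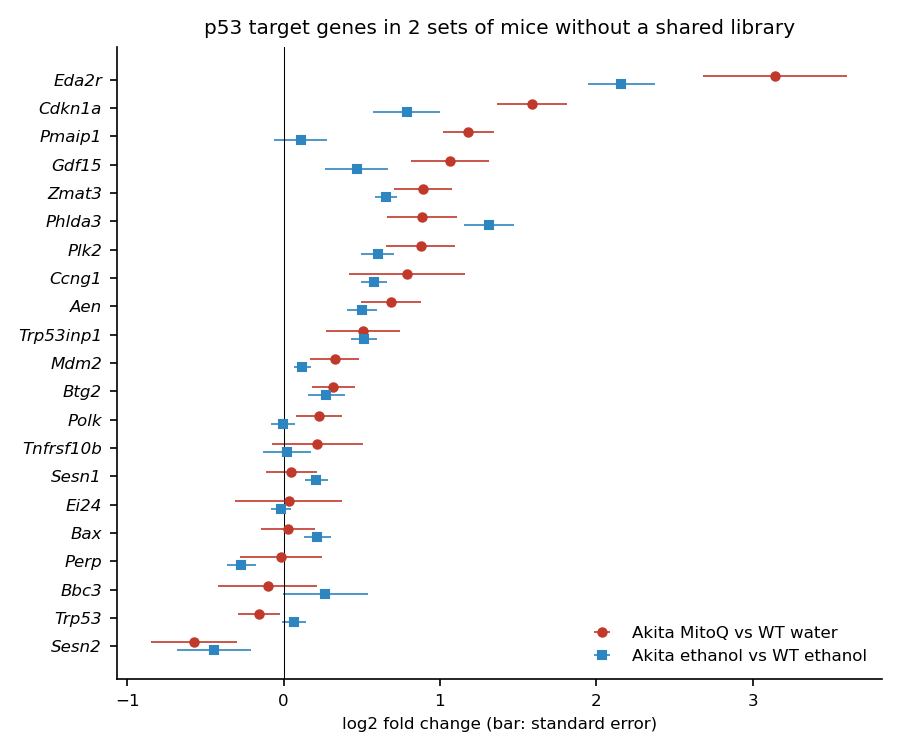
Log2 fold changes of the 21 p53 targets with standard errors (bars) in Akita mice on MitoQ against WT mice on water (circles) and in Akita against WT mice on ethanol (squares). Eda2r and Cdkn1a lie above 0 in both, and Pmaip1 lies at 1.18 in the first and 0.11 in the second.

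Cdkn1a has a far upstream start whose promoter is shown because it holds, in capitals, this paired core of p53 sites, a motif added after the called genes were known (RefSeq, GRCm38.p6, chr17:29090729-29090978, plus strand).
Cdkn1a promoter, upstream start: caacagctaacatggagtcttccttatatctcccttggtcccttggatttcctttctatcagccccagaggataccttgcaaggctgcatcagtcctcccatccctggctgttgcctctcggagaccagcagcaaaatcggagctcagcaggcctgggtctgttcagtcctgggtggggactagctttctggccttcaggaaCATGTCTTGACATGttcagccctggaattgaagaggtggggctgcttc
It occurred in 0.624% of the promoter windows and 0.833% of genes, in 2 of the 11 raised genes with a window (Cdkn1a and Ugt1a10) and in 0 of the 17 lowered genes. A match describes letters only, and binding of p53 was not measured.

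Among genes of the principal cell, which adjusts sodium and water uptake in the collecting duct, Sgk1 was raised. This kinase (ENSMUSG00000019970.15, chr10:21882184-21999903, plus strand) is induced by aldosterone and glucocorticoids and keeps sodium channels at the cell surface. It was at 52.1, 51.6, 35.3, 57.4 and 59.2 CPM in WT mice on water and 150.1, 129, 149, 126 and 144 CPM in Akita mice on MitoQ. The Akita libraries lay close together and all far above the WT libraries, with a change of 1.45 (standard error 0.16, adjusted p = 0.00277, edgeR). Akita mice on water were at 145 ± 47.4 CPM and WT mice on MitoQ at 48.8 ± 12.6 CPM (SD, n = 5). On the ethanol vehicle, Akita and WT mice differed by 0.42 (standard error 0.26, adjusted p = 0.294, edgeR), and whether the arms differ was not tested. Of the 16 tested genes of the list, Sgk1 alone passed, against 0.086% of all genes raised and 0.188% lowered. At an unadjusted p under 0.05 (9.18% of all genes), 2 members were higher and 2 lower. The list's median was -0.06 against -0.02 over all genes tested. Of its members 37.5% were above 0 (46.3% of all genes), and the lowest was at -2.87. Scnn1g, a subunit of the sodium channel, was at 0.49 (adjusted p = 0.234, edgeR), and the water channels Aqp2 and Aqp3 were at 0.34 and -0.08 (adjusted p = 0.726 and 0.942, edgeR). RefSeq lists 6 start sites for Sgk1. The start number 5 is shown since it holds the steroid receptor repeat (GNACA and TGTNC with 3 bases between) and the E-box CACGTG, both in capitals (GRCm38.p6, chr10:21993640-21993889, plus strand).
Sgk1 promoter, start 5: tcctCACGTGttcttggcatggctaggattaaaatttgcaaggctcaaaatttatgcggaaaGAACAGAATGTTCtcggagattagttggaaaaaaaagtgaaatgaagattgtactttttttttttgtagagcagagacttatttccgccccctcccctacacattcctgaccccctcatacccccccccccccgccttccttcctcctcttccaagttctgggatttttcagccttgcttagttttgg
The repeat occurred in 0.476% of the promoter windows, 0.537% of genes and, among called genes with a window, in Sgk1 alone. The E-box occurred in 7.17% of windows and 8.09% of genes, in 3 of 11 raised and 2 of 17 lowered genes.

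Among 55 tested genes of the extracellular matrix and fibrosis, 1 rose, 1 fell and 53 did not pass in edgeR (0.086% of all genes raised, 0.188% lowered), and 3 were higher and 2 lower in DESeq2 (0.645% and 1.05%). Grem1 (ENSMUSG00000074934.3, chr2:113746164-113758646, minus strand), a secreted antagonist of bone morphogenetic proteins, was at 0.287, 0, 0.178, 0.106 and 0.0616 CPM in WT mice on water, where library 2 had no count. It was at 1.85, 14.9, 7.89, 3.51 and 5.47 CPM in Akita mice on MitoQ, with library 2 the highest. That library also held more Adipoq, Upk1b and Slc14a2 than the others of its group, at 1.78, 3.08 and 3.01 CPM without TMM. The others reached at most 0.127, 0.726 and 0.609. The change of Grem1 was 5.66 (standard error 0.71, adjusted p = 0.00705, edgeR), with few counts behind the WT level, and its call was kept without Akita MitoQ library 2. The call was lost with limma voom and sample quality weights (adjusted p = 0.0802, limma). Col5a2, a chain of the fibrillar collagen V, fell from 18.5 ± 4.35 to 8.01 ± 1.89 CPM (SD, n = 5), a change of -1.20 (adjusted p = 0.0372, edgeR), and the call was lost without Akita MitoQ libraries 1, 2, 3, 4 or 5 or WT water libraries 2, 3, 4 or 5 (adjusted p between 0.0527 and 0.159). The interstitial collagens Col1a1 and Col1a2, which lead the list, were at -0.20 and -0.34 (adjusted p = 0.941 and 0.647, edgeR). The median of the list was 0.00, and 13 members had an unadjusted p under 0.05, a share that was 9.18% over all genes.

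The tubular injury list held 1 raised gene, Cdkn1a, and 1 lowered gene, Il34, among 26 tested in edgeR (0.086% of all genes raised, 0.188% lowered), and DESeq2 called 3 higher and 1 lower (0.645% and 1.05%). Il34 (ENSMUSG00000031750.15, chr8:110741829-110805924, minus strand) is made by tubule cells and binds the receptor encoded by Csf1r on macrophages. It was at 14.4, 4.77, 8.67, 10.8 and 7.08 CPM in WT mice on water and 1.79, 1.69, 1.78, 1.38 and 1.20 CPM in Akita mice on MitoQ. The WT values spread more than the Akita values, with library 1 the highest and library 2 the lowest, yet the lowest of them was above each Akita value, and the change was -2.53 (standard error 0.29, adjusted p = 0.00381, edgeR). Of markers that classically rise with injury, Havcr1 and Lcn2 did not reach the count minimum, and Spp1, which encodes osteopontin, was at 1.03 (adjusted p = 0.185, edgeR) and was not called. The list's median was 0.17, and 8 members had an unadjusted p under 0.05, against 9.18% of all genes.

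Csf1r (ENSMUSG00000024621.16, chr18:61100598-61132149, plus strand) was at 41.8, 28.9, 40.4, 32.0 and 36.5 CPM in WT mice on water and 16.8, 22.8, 22.5, 14.6 and 20.7 CPM in Akita mice on MitoQ. The groups did not overlap and the change was -0.88 (standard error 0.16, adjusted p = 0.0465, edgeR), but the call was lost whichever of the 10 libraries was left out (adjusted p between 0.0541 and 0.166). It was also lost with RLE normalization, without a filter on counts and with at least 10 counts in every library. Leaving out the mitochondrial genome, or both WT water libraries 1 and 3, ended the call too. Csf1r was the only 1 of 22 tested macrophage and leukocyte markers that was called, against 0.086% of all genes raised and 0.188% lowered. Adgre1 and Cd68, the first genes of the list, were at -0.20 and 0.32 (adjusted p = 0.946 and 0.846, edgeR), and H2-Ab1, which presents antigen, was at -0.70 (adjusted p = 0.235, edgeR). The list had 6 members with an unadjusted p under 0.05 (9.18% of all genes), all with a negative change. Its median was -0.24 against -0.02 over all genes tested. Summed per library over its 36 genes, none of them at 0 throughout, these markers were at 197 to 274 CPM in Akita mice on MitoQ and 263 to 375 in WT mice on water, which overlapped (exact two-sided permutation test, p = 0.0159, or 0.159 adjusted over 20 marker lists). The sums of 10 lymph node, B cell and T cell markers did not overlap, at 11.3 to 16.6 against 17.0 to 34.1 (exact permutation test, p = 0.00794, or 0.159 adjusted). The part of cell number in Csf1r and Il34 was not tested.

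Ly6e (ENSMUSG00000022587.14, chr15:74955051-74959905, plus strand), an interferon-induced surface protein, was at 208, 111, 109.8, 145 and 212 CPM in WT mice on water and 57.1, 59.0, 45.2, 48.8 and 51.8 CPM in Akita mice on MitoQ. The Akita values were within a narrow range, under each WT value, with a change of -1.59 (standard error 0.21, adjusted p = 0.0110, edgeR), and the call was lost without Akita MitoQ libraries 4 or 5 (adjusted p between 0.0519 and 0.0538). The other 32 tested genes of the interferon response and antigen presentation did not pass, against 0.086% of all genes raised and 0.188% lowered. Their list had a median of -0.23 against -0.02 over all genes tested. Ifit1, the second gene of the list, was at -0.05 (adjusted p = 0.984, edgeR).

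Lpl (ENSMUSG00000015568.16, chr8:68880491-68907448, plus strand), the lipase that frees fatty acids from circulating lipoproteins, was the only 1 of 15 tested genes of lipoprotein and lipid uptake to pass, against 0.086% of all genes raised and 0.188% lowered. It was at 401, 349, 326, 388 and 546 CPM in WT mice on water and 122, 189, 149, 52.3 and 120.4 CPM in Akita mice on MitoQ. Akita library 4 was the lowest and library 2 the highest of its group, still far under the WT values, and the change was -1.67 (standard error 0.29, adjusted p = 0.0438, edgeR). For Lpl, the call was lost without Akita MitoQ libraries 1, 2, 3 or 5 or WT water libraries 1, 2, 3, 4 or 5 (adjusted p between 0.0558 and 0.166). The call of Lpl was also lost with RLE normalization, without the mitochondrial genome and without both WT water libraries 1 and 3. Akita mice on water were at 80.6 ± 20.02 CPM (SD, n = 5), lower than on MitoQ by 0.66 on the log2 scale, a difference with an unadjusted p of 0.0384 and an adjusted p of 0.999 (edgeR). Gpihbp1, which anchors the lipase to capillaries, was at 0.77 (adjusted p = 0.360, edgeR). Apoh, a plasma lipoprotein component made mainly by the liver, was also called, at -2.57 (adjusted p = 0.0465, edgeR). Its level was 16.1, 2.51, 5.70, 7.42 and 6.96 CPM in WT mice on water, highest in library 1, which also held the most Alb, and 1.62, 2.11, 1.12, 0.575 and 1.08 CPM in Akita mice on MitoQ; without library 1 the change was -2.11 (adjusted p = 0.0799, edgeR), and the call was lost without Akita MitoQ libraries 1, 2, 3, 4 or 5 or WT water libraries 1, 3, 4 or 5 (adjusted p between 0.0664 and 0.172).

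Of the remaining genes named by rule, Cntnap5a (ENSMUSG00000070695.4, chr1:115684756-116587323, plus strand), a neurexin-like adhesion protein, was at 10.0, 2.89, 10.3, 8.27 and 5.42 CPM in WT mice on water and 0.280, 1.19, 0.509, 0.46 and 0.421 CPM in Akita mice on MitoQ, a change of -3.70 (adjusted p = 0.00455, edgeR). Rhov, a small GTPase, fell from 6.81 ± 0.729 to 2.03 ± 0.587 CPM (SD, n = 5) with a change of -1.74. Ttbk1, a tau tubulin kinase, fell by 1.40 and Tbata by 1.03 on the log2 scale. Tm4sf4, a tetraspanin-like membrane protein, was at 0.950 to 3.39 CPM in WT mice and 0 to 0.392 CPM in Akita mice on MitoQ, which left few counts behind its change of -3.47. The noncoding transcript AA536875 changed by -4.05 at similarly low levels. Clca3a1, a secreted protein of the calcium-activated chloride channel family, rose from 4.95 ± 1.80 to 13.3 ± 2.36 CPM (SD, n = 5), a change of 1.42 (adjusted p = 0.0294, edgeR). For Clca3a1, the call was lost without Akita MitoQ libraries 1, 3, 4 or 5 or WT water libraries 1, 3, 4 or 5 (adjusted p between 0.0548 and 0.123); for Ttbk1, the call was lost without Akita MitoQ libraries 4 or 5 or WT water library 4 (adjusted p between 0.0614 and 0.0779); for Tbata, the call was lost without Akita MitoQ libraries 2, 4 or 5 or WT water library 4 (adjusted p between 0.0524 and 0.0779); for Tm4sf4, the call was lost without Akita MitoQ libraries 2, 3, 4 or 5 or WT water libraries 1, 2, 4 or 5 (adjusted p between 0.0541 and 0.163).

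Further genes passed the test without belonging to a list or to the rule, and those named here were chosen after their values were seen. Prlr, the prolactin receptor, was at 5.60 to 9.86 CPM in WT mice and 16.4 to 56.1 CPM in Akita mice on MitoQ (2.07, adjusted p = 0.0344, edgeR). Stc1, the hormone stanniocalcin, rose by 1.45, Myof, a membrane repair protein, by 0.87, and Rcan1, an inhibitor of calcineurin, by 1.02 on the log2 scale. Mdk, the growth factor midkine, was at 9.15 to 18.8 CPM in WT mice and 2.19 to 6.18 CPM in Akita mice on MitoQ (-1.65, adjusted p = 0.0372, edgeR). Ntn1, the guidance cue netrin, changed by -0.84, Trib2, a pseudokinase, by -0.91, Cyp2d12, a cytochrome P450, by -1.56 and Selenbp2, a selenium-binding protein, by -1.46. The pseudogene Gm6300 was at 30.8, 7.90, 15.9, 15.9 and 33.4 CPM in WT mice and 0.616, 0.141, 0.153, 0 and 0 CPM in Akita mice on MitoQ (-6.75, adjusted p = 0.00149, edgeR), and reads of a pseudogene cannot be told from those of its parent where the sequences are the same. Of the genes in this paragraph, Gm6300 kept its call in 10 of 10 fits that left out 1 library, Prlr and Trib2 and Selenbp2 in 4, Cyp2d12 in 3, Myof in 2, Mdk, Stc1 and Rcan1 in 1 and Ntn1 in 0.

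Several lists had no called member in edgeR, although some of their genes had larger log2 fold changes than several called genes. The members named in this and the next paragraph without a call were chosen for their small p after their values were seen, unless they lead their list. Counts in DESeq2 are to be read against 0.645% of all genes raised and 1.05% lowered there, and those of an unadjusted p under 0.05 against 9.18%. The 13 messenger RNAs of the mitochondrial genome had a median change of 0.75 and 9 members with an unadjusted p under 0.05, all positive, but 0 calls in edgeR against 7 in DESeq2. The complex I genes mt-Nd1 and mt-Nd2 were at 0.66 and 0.97 (adjusted p = 0.502 and 0.175, edgeR). The summed level of the list overlapped between the groups (exact permutation test, p = 0.135), and in the ethanol arm the median was 0.11 with 0 calls. Without MitoQ, between Akita and WT mice on water, which share the WT libraries, it was 0.46 with 0 calls, in the same direction. Between Akita mice on water and WT mice on MitoQ it was -0.34, of the opposite sign, also with 0 calls. The 80 nuclear-encoded subunits of the respiratory chain had a median of 0.10, 1 unadjusted p under 0.05 and 0 calls in edgeR and in DESeq2. The 48 antioxidant and NRF2 targets had a median of 0.04, 9 unadjusted p under 0.05 and 0 calls in edgeR against 3 in DESeq2. Gsta2, a glutathione transferase, was nearest to the threshold at 1.68 (adjusted p = 0.0541, edgeR), while Nfe2l2, which encodes NRF2, was at 0.35 (adjusted p = 0.341, edgeR).

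The 14 androgen-responsive genes had the lowest median of the lists, -1.08, with 13 below 0 and 9 unadjusted p under 0.05, yet 0 calls in edgeR and 1 in DESeq2. Kap and Odc1, which lead this list, were at -0.99 and -1.62 (adjusted p = 0.762 and 0.317, edgeR). In Akita against WT mice on water the median was -1.90 with 2 lowered (background 0.366%), and in the ethanol arm -1.29 with 12 lowered (background 8.22%). The 38 genes of fatty acid oxidation and PPAR-alpha targets had a median of 0.24, 9 unadjusted p under 0.05 and 0 calls in edgeR against 3 in DESeq2. Cyp4a14, a fatty acid hydroxylase, was at 3.55 (adjusted p = 0.0967, edgeR), or 2.90 without Akita MitoQ library 4, and Ppara at 0.35 (adjusted p = 0.786, edgeR). Of 10 glucose transporters, 0 were called in edgeR and 1 in DESeq2, and 4 had an unadjusted p under 0.05. The sodium-coupled transporters Slc5a2 and Slc5a1, which take up filtered glucose, were at -0.24 and 0.20 (adjusted p = 0.780 and 0.934, edgeR). Slc5a10, a mannose and fructose transporter, was at 0.92 (adjusted p = 0.179, edgeR). For the 10 glucose transporters, the ethanol arm gave 6 raised (background 8.18%) and a median of 0.40. The 18 cytosolic heat shock genes were all below 0 with a median of -0.34, 5 unadjusted p under 0.05 and 0 calls in edgeR and in DESeq2. Hspa1a and Hspa1b, inducible chaperones of nearly the same sequence, were at -1.67 and -1.55 (adjusted p = 0.300 and 0.315, edgeR), or -1.03 and -0.85 without WT water library 4. In the ethanol arm 16 heat shock genes fell (background 8.22%), with a median of -0.88. The 21 genes of the distal convoluted tubule had a median of 0.24, 8 unadjusted p under 0.05 and 0 calls in edgeR against 1 in DESeq2. A gene that missed the threshold is not shown to be equal between the groups.

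Genes of proximal tubule transport, podocytes and endothelium, the renin-angiotensin system and the endoplasmic reticulum had 0 calls in edgeR. For the 42 genes of proximal tubule transport the median was -0.11, with 2 higher and 9 lower genes at an unadjusted p under 0.05, and DESeq2 called 1 higher and 1 lower. Lrp2, the uptake receptor megalin, was at -0.09 and Slc34a1, the phosphate transporter, at -0.33 (adjusted p = 0.977 and 0.668, edgeR). The 21 podocyte markers had a median of -0.13, with 1 higher and 3 lower at an unadjusted p under 0.05, and Nphs1, which encodes nephrin of the filtration slit, was at -0.19 (adjusted p = 0.921, edgeR). The 20 endothelial genes had a median of 0.01, with 2 higher and 1 lower, and Vegfa was at -0.44 (adjusted p = 0.687, edgeR). DESeq2 called 0 podocyte and 0 endothelial genes. Of the 12 genes of the renin-angiotensin system, 1 was higher and 3 lower at an unadjusted p under 0.05, and 0 were called in edgeR. In DESeq2 2 were lower, Ace at -1.31 and Akr1b7 at -1.16 (adjusted p = 0.021 and 0.0453, DESeq2). Ren1, which encodes renin, was at -1.07 (adjusted p = 0.302, edgeR) and was called in neither. Among 22 chaperones and unfolded protein response genes the median was -0.27, with 5 lower at an unadjusted p under 0.05 and 0 called in edgeR and in DESeq2. Hspa5, the main chaperone of the endoplasmic reticulum, was at -0.36 (adjusted p = 0.710, edgeR). In the ethanol arm 17 of 23 tested genes of this list fell (background 8.22%), with a median of -0.61.

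**Figure D4:**
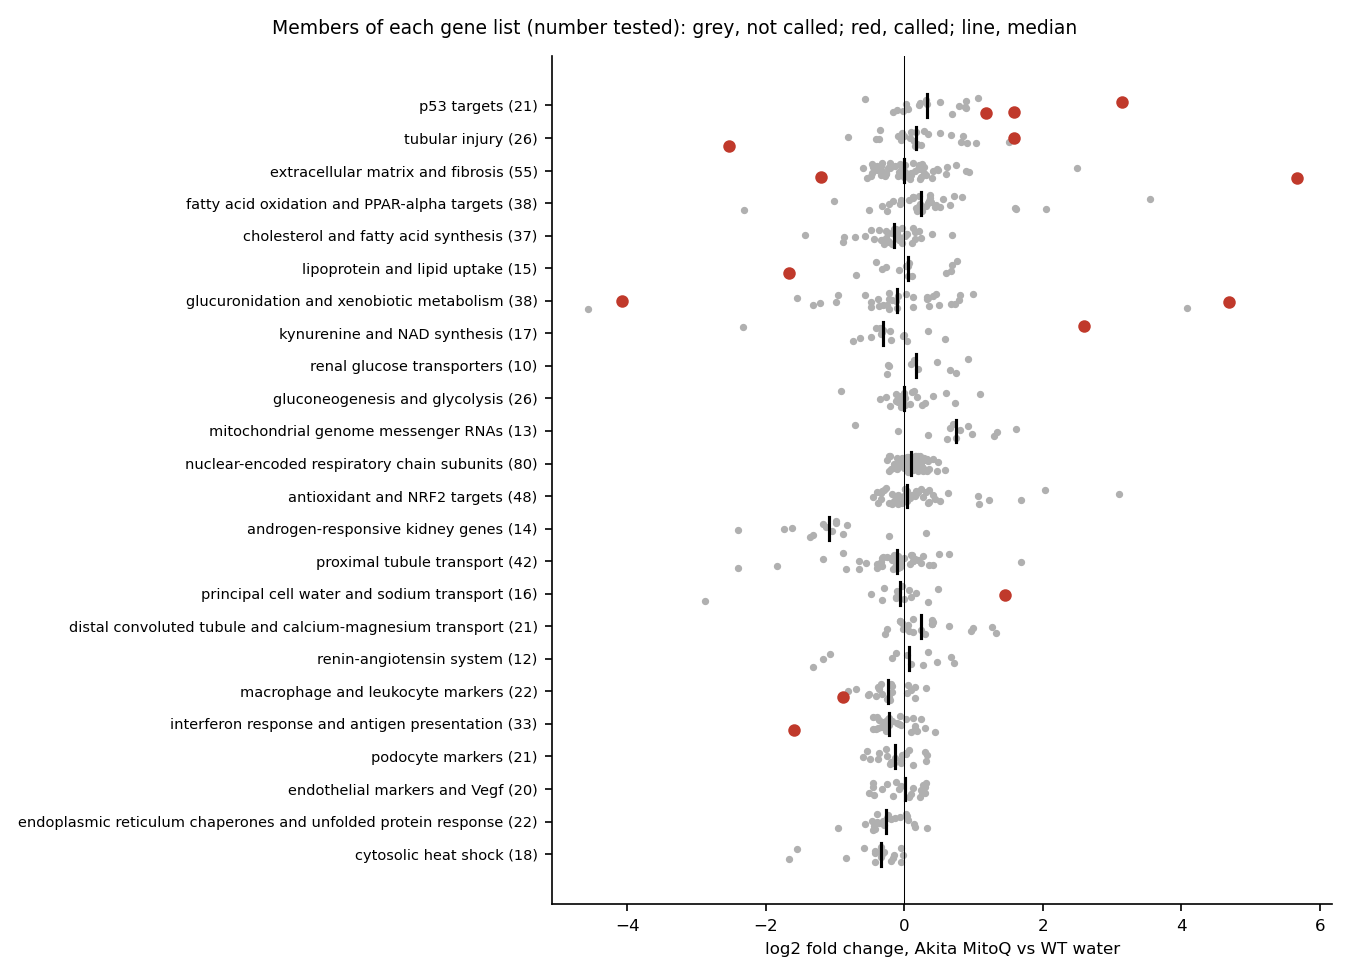
Log2 fold change of Akita mice on MitoQ over WT mice on water for each tested member of 24 gene lists, with the number tested in brackets, called members as large red points and the list's median as a line. The p53 list holds 3 called members, all raised, and the xenobiotic, matrix and injury lists 2 each, 1 raised and 1 lowered; the medians lie between -1.08 in the androgen-responsive and 0.75 in the mitochondrial genome list.

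The companion comparisons set these differences beside those without MitoQ. In Akita mice, MitoQ against water gave 0 of 18496 calls in edgeR and 0 in DESeq2, with an unadjusted p under 0.05 in 363 genes (1.96%). That share is less than the threshold of 0.05 gives by chance alone, and 0 calls do not show the groups to be equal. Akita against WT mice on water gave 101 of 18304 calls (0.552%), and this comparison shares the WT libraries with that of Akita mice on MitoQ, so their values are only given side by side. Ugt1a10 changed by 5.08 without and 4.69 with MitoQ, Kynu by 2.90 and 2.59, Sgk1 by 1.51 and 1.45, and Ces1g by -4.14 and -4.07. Cdkn1a was at 1.09 (adjusted p = 0.177, edgeR) without MitoQ and Pmaip1 at 0.99 (adjusted p = 0.349, edgeR), and neither passed there. The direct tests between Akita mice on MitoQ and on water gave 0.49 for Cdkn1a (unadjusted p = 0.0892, adjusted p = 0.999, edgeR) and 0.18 for Pmaip1 (adjusted p = 0.999, edgeR). The test of whether the MitoQ difference depended on genotype gave 0 of 18225 calls in edgeR, 1 in DESeq2 and 207 unadjusted p under 0.05 (1.14%). Here too the share was less than 0.05 gives by chance, so the MitoQ difference is not shown to be alike in both genotypes.

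Comparisons in other mice share no library with the 10 studied here. In Akita against WT mice on the ethanol vehicle, where 2910 of 17747 genes (16.4%) were called, 48 of the 51 genes had the same direction and 44 were called in it. These 44 were 86.3% of the 51 and 1.51% of the 2910, and 0 of the 51 were called in the opposite direction. Those not called there were Sgk1, Pmaip1, Rcan1, Ngef, Grip2, Gm19220 and Gm28959. In Akita mice on water against WT mice on MitoQ, with 233 of 17824 calls (1.31%), 48 of the 51 had the same direction and 32 were called, which was 62.7% of the 51 and 13.7% of the 233. Again 0 were called in the opposite direction. The median size of the change in the 16 raised genes was 1.52 here, 0.97 on ethanol and 1.42 between Akita mice on water and WT mice on MitoQ, and in the 35 lowered genes 1.67, 1.62 and 1.35, the genes having been chosen by their call here. The values of 4 genes are set side by side. Ugt1a10 was at 4.69 here, 4.78 on ethanol and 4.62 between Akita mice on water and WT mice on MitoQ, Ces1g at -4.07, -3.93 and -4.03, Il34 at -2.53, -2.16 and -2.32, and Grem1 at 5.66, 3.57 and 4.47.

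**Figure D5:**
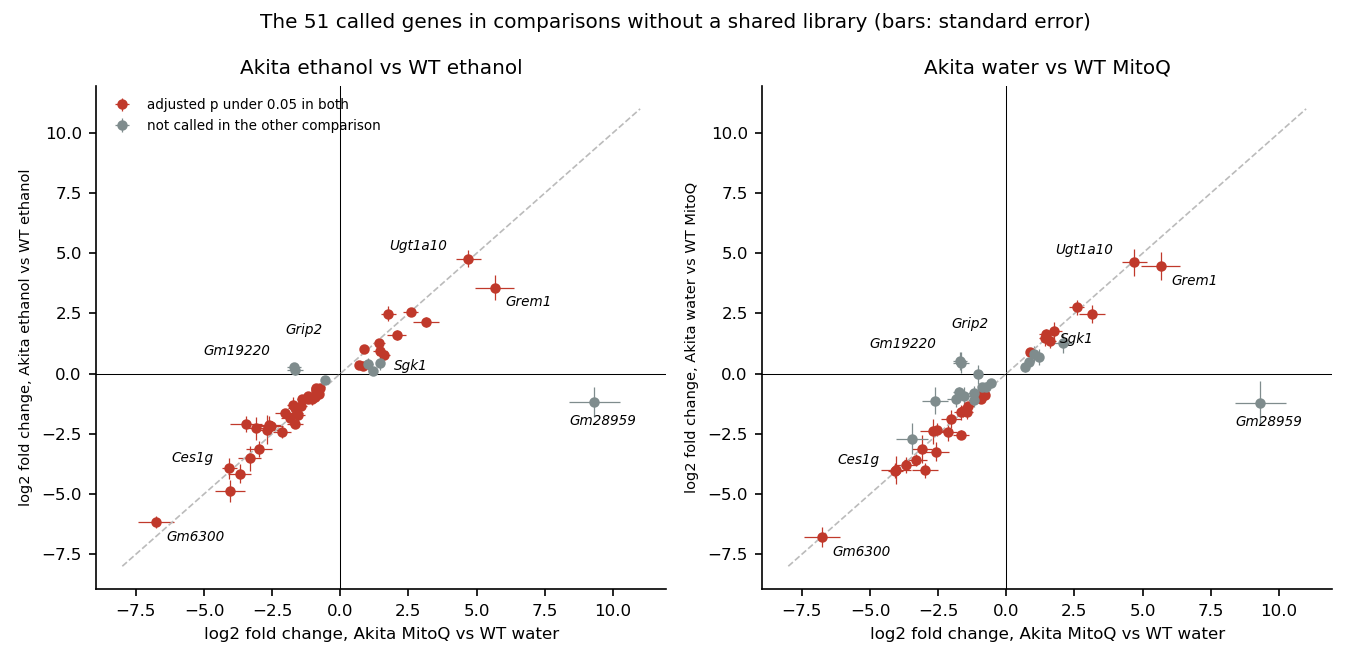
Log2 fold changes of the 51 called genes in Akita mice on MitoQ against WT mice on water (horizontal) and in 2 comparisons without a shared library (vertical), with standard errors as bars and the line of equality dashed; red points were called in both. Most points lie near the line, and Grip2, Gm19220 and Gm28959 lie off it with the opposite sign; the fitted value of Gm28959 has no meaning as a fold, since its WT libraries were at 0.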

How the data were processed

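RNA was measured in 40 renal cortex libraries of single mice. According to the study's methods and the labels, the authors trimmed reads with Skewer, assigned them to GENCODE mouse transcripts with kallisto 0.46.1 (GRCm38) and summed transcripts per gene. The table that the authors deposited holds whole-number estimated counts, neither scaled nor filtered. Columns were assigned to samples by title, and 0 columns were left unused. Positions came from GENCODE M21, which held 99.5% of the identifiers.

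The 10 libraries of a comparison entered 1 fit in edgeR 4.0.16 (R 4.3.3, TMM, quasi-likelihood test), restricted to genes that averaged 10 or more counts, and genes were called at an adjusted p under 0.05 (Benjamini-Hochberg). The interaction used 20 libraries. Marker lists were compared by exact permutation tests of log2 values. Genes named by rule were the 8 raised and 8 lowered with the smallest p. To these came the 4 of each with the largest change at 1 CPM or more. Predicted genes and pseudogenes were left out of both. From each list, the rule took the first 2 members and up to 4 called. Other uncalled list members named in the text, such as Afmid, Gdf15, Scnn1g, Spp1 and H2-Ab1, fall outside this rule. They were picked with their values known. Alternatives were DESeq2 1.42.0, RLE normalization, other filters and fits, a replicate block and each library left out; limma 3.58.1 with sample weights, the replicate axis as covariate, leaving out the mitochondrial genome and leaving out WT water libraries 1 and 3 were added after the data were examined. The scripts were tested on simulated data. The members and lists were chosen with earlier results of these data known. The library kit keeps strand, but whether counting used it is not given in the sources used here, so antisense genes are uncertain. Some list members are not reported here.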

Additional observations from a re-analysis of the deposited data

Results flagged for a closer look

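In 13 of 148 groups of 5 values, the highest or the lowest library lay far from the other 4 (Dixon's test at 95%), where 7.4 are expected by chance. Of these, 7 of 46 concerned marker sums and other measures of whole libraries, given as CPM without TMM. WT water library 1 had the highest sum of liver markers (781, others 42.8 to 96.7), adipose markers (52.9, others 12.2 to 15.0), skeletal muscle markers (6.46, others 1.30 to 1.78) and medulla markers (193, others 53.3 to 90.4). WT water library 3 had the highest sum of B and T cell markers (34.1, others 17.0 to 19.3). Akita MitoQ library 2 had the lowest sum of endothelial markers (761, others 917 to 958) and of intercalated cell genes (996, others 1276 to 1372).

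Among the called genes, the library that stood apart was Akita MitoQ library 1 for Gm6300 (0.616 CPM, others 0 to 0.153) and Nabp1 (107 CPM, others 81.2 to 88.7), and library 2 of the same group for Cntnap5a (1.19 CPM, others 0.280 to 0.509) and Gm15895 (0.562 CPM, others 0.168 to 0.255). It was library 4 for Ntn1 (39.8 CPM, others 54.9 to 60.2) and WT water library 3 for Slc45a3 (13.8 CPM, others 17.5 to 19.0).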

How the results depend on the processing

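Against 51 calls (16 higher, 35 lower), the count was 315 (120 and 195) with DESeq2, 150 (50 and 100) with the water arm in one fit, 453 (174 and 279) with all 40 libraries in one fit, 106 (37 and 69) with the replicate number as a block, 833 (298 and 535) with the replicate axis as a covariate, 166 (62 and 104) with limma voom and sample quality weights and 23 (7 and 16) without both WT water libraries 1 and 3. With at least 10 counts in every library 23 genes were lower, and without any filter on counts, with RLE normalization or without the mitochondrial genome the total was 53, 37 and 43. Leaving out 1 library gave 13 to 38 calls, 5 to 15 higher and 8 to 24 lower. The replicate numbers were not taken to pair the samples, since no source says what they share and 1 of 5 same-numbered pairs correlated at -0.200 (the other 4 at 0.161 to 0.677), and 1 of 5 matched its own number best. The 101 calls of Akita against WT mice on water became 354 with DESeq2, 543 with all 40 libraries, 32 with the block and 32 to 94 with 1 library left out. The 233 calls of Akita mice on water against WT mice on MitoQ became 660, 791 and 42 in the same fits and 85 to 595 with 1 library left out (595 without WT MitoQ library 3). The 2910 calls on ethanol became 873 with all 40 libraries, and the interaction gave 1 call in DESeq2. MitoQ against water in Akita mice stayed at 0 calls in the fits run. No gene named among the calls changed sign in these settings. The causes were not tested. Of the 51 genes, 51 were also called in DESeq2, 50 with the block and 20 of the 50 tested without WT water libraries 1 and 3. The depth of 9964109 to 17903654 counts leaves few counts for genes such as Grem1 (0 to 4 counts in each WT library) and Eda2r (2 to 6), with wide errors.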

Other observations

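Grip2, a scaffold protein for glutamate receptors, and the processed pseudogene Gm19220 were called lower in Akita mice on MitoQ and were singled out after their values were seen. Grip2 was at 52.5, 110.1, 109, 137 and 62.4 CPM in WT mice on water and 29.9, 27.2, 33.2, 31.7 and 21.5 CPM in Akita mice on MitoQ, a change of -1.71 (standard error 0.25, adjusted p = 0.0156, edgeR). Akita mice on water were at 74.8 CPM (40.1 to 116) and WT mice on MitoQ at 51.04 CPM (27.7 to 85.9), so that the mean was lower on MitoQ than on water in both genotypes, and on either treatment the Akita mean was below that of WT. Between Akita mice on MitoQ and on water the change was -1.37 (unadjusted p = 0.000418, adjusted p = 0.999, edgeR), which does not pass. Between the genotypes on water it was -0.34 (adjusted p = 1.00, edgeR). On the ethanol vehicle, Akita and WT mice differed by 0.27 (adjusted p = 0.343, edgeR). Gm19220 (chr12:40893485-40894287), on another chromosome than Grip2 (chr6:91761509-91827250), was at 410.3, 973, 1021, 1384 and 562 CPM in WT mice on water and 263, 267, 326, 295 and 223 CPM in Akita mice on MitoQ. In the 20 libraries of the water arm, the level of Gm19220 was between 7.82 and 11.9 times that of Grip2. Whether both are counted from shared reads was not tested.

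Gm28959, annotated as antisense (chr9:106452181-106452918), had 0 counts in the 5 WT water libraries and 414 in the 5 Akita MitoQ libraries, at 2.13, 10.7, 4.78, 3.22 and 4.45 CPM. Against a floor of 3 counts per library, it was at least 23.3-fold higher (adjusted p = 0.0110, edgeR). WT mice on MitoQ were at 0 to 11.3 CPM, with library 1 at 0, and Akita mice on water at 0 to 3.91 CPM, and the change on ethanol was -1.17 (adjusted p = 0.227, edgeR).

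With the replicate axis as a covariate, an alternative chosen after seeing the data, 833 genes were called, the 51 among them. Of the 833, 403 (48.4%) were also called in the same direction in Akita against WT mice on ethanol, which share no library with this comparison, where 16.4% of genes were called in either direction, and 2 were called in the opposite direction. In this fit, 1.6% of all genes were raised and 2.88% lowered. Of the lists and families with 4 or more calls in one direction, raised genes were 9 of 21 p53 targets, 6 of 13 mitochondrial messenger RNAs, 5 of 38 xenobiotic genes, 4 of 38 genes of fatty acid oxidation and PPAR-alpha targets and 4 of 84 cytosolic ribosomal proteins. Lowered genes were 6 of 14 androgen-responsive genes, 6 of 42 genes of proximal tubule transport, 5 of 38 xenobiotic genes, 5 of 22 macrophage and leukocyte markers, 4 of 37 genes of cholesterol and fatty acid synthesis and 4 of 39 proteasome subunits. The 4 raised genes of the list of fatty acid oxidation and PPAR-alpha targets were Cyp4a14, Cyp4a10, Vnn1 and Acot1. Acads (-0.54) and Bdh1 (-1.02) of that list were lowered.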
